A study of Mus musculus with 8 samples.

Results

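Constitutive open regions at gene ends were described in mouse retinal ganglion cells (RGCs), the neurons that send the optic nerve to the brain. Open chromatin had been mapped by ATAC-Seq, in which a transposase inserts sequencing adapters into accessible DNA, and 1 list of peaks was deposited for each of 8 samples. On chromosomes 1 to 19, peaks overlapping by 1 bp or more, in whichever list, were joined into 186387 regions, and every list had a peak in 68278 of them. Members were chosen by the presence of a peak in all 8 lists and by a position within 1 kb of either end of a protein-coding RefSeq gene, and 13764 regions qualified. They were 7.38% of all merged regions and 20.2% of those with a peak in all 8 lists. The rest of the latter comprised 30947 regions inside gene bodies and 23567 outside genes.

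All groups were adult C57BL/6J mice whose eyes received AAV2, an adeno-associated virus that transduces many RGCs, followed 2 weeks later by optic nerve crush (ONC). The virus carried GFP in the control group (n = 3), Ezh2 in the second (n = 3), and Ezh2-Y726D, a form of Ezh2 without methyltransferase activity, in the third (n = 2). Living cells positive for the surface protein CD90.2, the product of Thy1, were sorted 3 days after ONC, and 50000 went into each library. The crush and the AAV2 injection were thus common to all groups, the sort did not select for cells carrying the virus, and the number of mice behind a library was not stated. P-values therefore measure the spread between these samples, which may be partly technical.

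Gene promoters recruit the transcription machinery to a stretch of DNA kept free of nucleosomes, and in vertebrates most of them lie in CpG islands, which are accessible in nearly every cell type. Genes of basic metabolism, protein synthesis and protein breakdown have such promoters. Genes used in a single cell type often have promoters poor in CpG that open only where the gene is used. Polycomb repressive complex 2, of which Ezh2 is the catalytic subunit, methylates lysine 27 of histone H3, mainly at CpG islands of developmental genes.

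The promoter sequences below are those of the RefSeq annotation (GRCm38.p6), each running from 250 bases before to 50 bases after a start, 300 bases in all. The first 4 belong to members among the 10 strongest over all lists. Zbed5 encodes a zinc finger protein derived from a transposase, Gpn1 a GTPase needed for nuclear import of RNA polymerase II, Cenpf a protein of the kinetochore, and Espl1 separase, the protease that releases sister chromatids. Capitals mark matches on either strand to CCAAT (the NF-Y box), GGGCGG (the Sp1 box), CCGGAAG (an ETS site), ATGGCGGC, GCGCATGCG, TATAAA, TGACGTCA (the cAMP response element) and TGANTCA (an AP-1 site). Adjoining or overlapping matches run together in capitals.

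The Zbed5 promoter lay at chr5:129895473-129895772 on the plus strand, the Gpn1 promoter at chr5:31494491-31494790 on the plus strand, the Cenpf promoter at chr1:189688037-189688336 on the minus strand and the Espl1 promoter at chr15:102296043-102296342 on the plus strand. All 4 held CCAAT on at least 1 strand, and Gpn1 held 3 copies.
Zbed5: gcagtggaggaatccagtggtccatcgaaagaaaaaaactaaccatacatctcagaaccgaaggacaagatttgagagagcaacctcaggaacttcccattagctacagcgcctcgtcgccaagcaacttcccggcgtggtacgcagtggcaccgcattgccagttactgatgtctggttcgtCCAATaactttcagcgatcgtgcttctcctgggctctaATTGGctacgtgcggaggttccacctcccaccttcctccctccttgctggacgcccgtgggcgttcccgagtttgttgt
Gpn1: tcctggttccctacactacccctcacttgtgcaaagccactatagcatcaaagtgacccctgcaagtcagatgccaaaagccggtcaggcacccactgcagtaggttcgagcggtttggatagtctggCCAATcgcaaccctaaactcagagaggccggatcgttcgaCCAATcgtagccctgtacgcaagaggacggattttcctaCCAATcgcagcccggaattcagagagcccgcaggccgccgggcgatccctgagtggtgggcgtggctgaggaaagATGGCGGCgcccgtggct
Cenpf: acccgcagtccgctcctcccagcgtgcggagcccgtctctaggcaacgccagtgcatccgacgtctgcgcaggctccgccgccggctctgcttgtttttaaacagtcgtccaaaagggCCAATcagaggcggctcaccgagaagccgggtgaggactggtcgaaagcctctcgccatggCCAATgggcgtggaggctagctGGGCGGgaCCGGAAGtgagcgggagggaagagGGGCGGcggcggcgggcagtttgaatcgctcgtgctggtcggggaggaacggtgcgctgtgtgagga
Espl1: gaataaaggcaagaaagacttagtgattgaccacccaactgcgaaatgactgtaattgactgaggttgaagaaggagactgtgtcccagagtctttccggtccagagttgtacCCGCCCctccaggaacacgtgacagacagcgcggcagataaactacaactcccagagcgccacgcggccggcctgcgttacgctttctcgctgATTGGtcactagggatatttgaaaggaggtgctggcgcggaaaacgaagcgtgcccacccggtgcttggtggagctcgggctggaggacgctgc

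The next 4 belong to members whose strength differed most between groups. Dhrs9 and Rdh1 encode short-chain dehydrogenases that act on retinol and other lipids, Ildr1 a protein of tight junctions where 3 cells meet, and Themis a signaling protein of developing T cells. The Dhrs9 promoter lay at chr2:69380212-69380511, the Ildr1 promoter at chr16:36693728-36694027, the Themis promoter at chr10:28668145-28668444 and the Rdh1 promoter at chr10:127759513-127759812, all on the plus strand. The ratio of observed to expected CpG was 0.354 for Dhrs9, 0.638 for Ildr1, 0.112 for Themis and 0.127 for Rdh1, compared with 0.831 for Zbed5, 0.776 for Gpn1, 0.963 for Cenpf and 0.856 for Espl1. None of the motifs was found in the Themis window.
Dhrs9: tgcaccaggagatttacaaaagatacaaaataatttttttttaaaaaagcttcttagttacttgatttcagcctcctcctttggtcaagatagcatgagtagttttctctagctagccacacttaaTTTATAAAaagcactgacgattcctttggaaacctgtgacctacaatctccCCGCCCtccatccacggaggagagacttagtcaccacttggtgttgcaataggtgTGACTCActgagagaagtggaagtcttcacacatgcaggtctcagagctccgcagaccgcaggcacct
Ildr1: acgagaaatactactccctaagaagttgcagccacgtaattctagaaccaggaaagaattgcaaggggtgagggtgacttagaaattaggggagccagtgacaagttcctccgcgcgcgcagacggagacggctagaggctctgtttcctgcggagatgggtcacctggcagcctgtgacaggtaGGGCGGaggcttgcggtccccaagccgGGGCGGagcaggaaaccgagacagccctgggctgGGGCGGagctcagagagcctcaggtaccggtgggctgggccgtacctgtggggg
Themis: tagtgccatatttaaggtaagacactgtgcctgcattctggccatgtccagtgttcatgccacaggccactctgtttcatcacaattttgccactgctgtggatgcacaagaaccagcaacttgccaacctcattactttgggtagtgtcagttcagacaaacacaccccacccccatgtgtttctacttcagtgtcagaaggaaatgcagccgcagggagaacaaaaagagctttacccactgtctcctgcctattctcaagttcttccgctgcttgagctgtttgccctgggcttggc
Rdh1: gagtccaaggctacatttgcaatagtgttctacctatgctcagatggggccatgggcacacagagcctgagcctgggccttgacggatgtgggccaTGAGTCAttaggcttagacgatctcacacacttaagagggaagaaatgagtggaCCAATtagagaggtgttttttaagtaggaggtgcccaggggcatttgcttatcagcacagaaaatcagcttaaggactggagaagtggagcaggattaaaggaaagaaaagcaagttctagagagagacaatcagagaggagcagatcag

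Most members marked gene starts. Strand was given for 16457 of 20665 protein-coding genes (79.6%), and with it 9562 members (69.5%) lay at a start, 1349 (9.8%) at an end of transcription without a start, and 2853 (20.7%) at genes with no strand given. A gene end lay inside 11138 members (80.9%), and the other 2626 were up to 1000 bp away. At 935 of the members at a start (9.78%), starts of genes on opposite strands shared the region. In all, 13654 genes (66.1%) had a member, and 2241 of them had 2 or more. Of all 18536 regions at gene ends, whatever their number of lists, 74.3% had a peak in all 8, compared with 32.3% of regions in gene bodies and 32.8% outside genes. These shares restate the rule and were not tested. A gene-end region missing from any list was not a member, so differences that ended in the loss of a peak are not among the results below.

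In the last 100 bp inside the distance limit, 242 members had a median strength percentile of 65.7 and a median width of 962.0 bp, and in the first 100 bp outside it 215 regions with a peak in all lists had 60.1 and 893.0 bp. The 560 gene-end regions with a peak in 7 lists had a median of 37.5 over the lists in which they occurred, below the 84.5 of the members. Strength here is the percentile of a peak's fold over local background, the ratio deposited for each peak, among all peaks of its own list.

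The peak summits clustered at the start itself. In members at a start, the summit averaged over lists lay a median of 14.9 bp downstream of the nearest start (quartiles −44.3 and 202.7 bp), and 72.1% of summits lay within 250 bp of it. The summit position was also repeatable between lists, with a median SD over the 8 lists of 29.3 bp, compared with 53.6 bp in gene bodies and 49.8 bp outside genes.

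**Figure D1:**
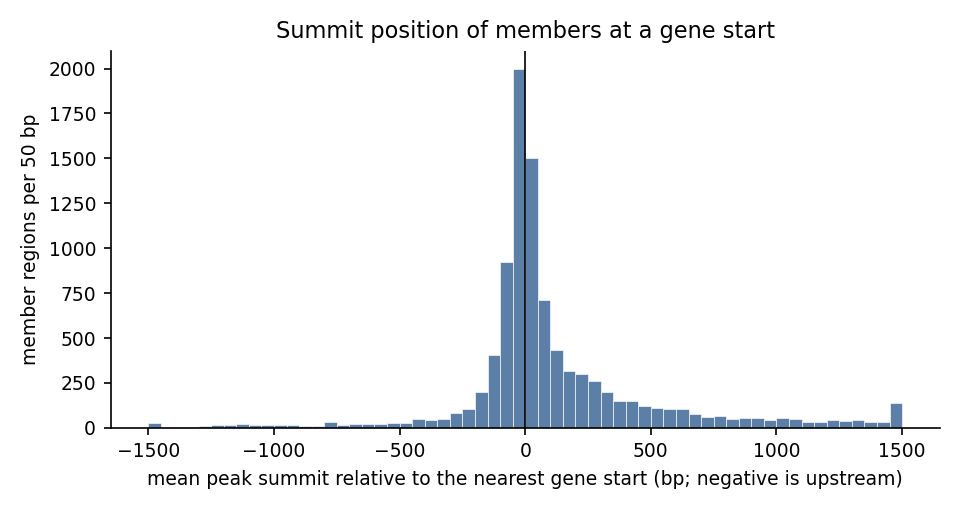
Mean summit position of the 9562 members at a gene start, in bins of 50 bp relative to the nearest start, with negative values upstream. The tallest bar, the 50 bp upstream of the start, holds 1999 members and the next one downstream 1503, and the outermost bars also hold members farther away.

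Members were the strongest class in every list. The median fold percentile of the members was 85.9, 85.4 and 85.3 in the GFP lists, 84.8, 85.6 and 85.6 in the Ezh2 lists, and 84.6 and 84.1 in the Ezh2-Y726D lists. In gene bodies, the 8 medians ranged from 58.3 to 63.9, and outside genes from 67.5 to 74. The difference from gene bodies was 23.9 percentile points ± 2.02 (SD over 8 lists), and from regions outside genes 13.9 ± 2.73, with members higher in 8 of 8 lists for both (exact sign-flip permutation test, two-sided, p = 0.00781 and adjusted p = 0.00781, the smallest that 8 lists allow). All classes here had a peak in all 8 lists, so presence did not separate them. On the scale of fold over background, the members' median ranged from 7.76 to 8.63 across lists, that of gene bodies from 5.3 to 5.9 and that outside genes from 6.01 to 6.97. Of members, 38.4% had a mean percentile above 90, compared with 6.73% in gene bodies and 12.1% outside genes.

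Members were also wider. Their median peak width was 1123, 1081 and 1179 bp in the GFP lists, 1129, 1145 and 1200 bp in the Ezh2 lists, and 1080 and 1137 bp in the Ezh2-Y726D lists. Peaks in gene bodies had medians of 587.0 to 690.0 bp and those outside genes 584.0 to 683.0 bp. The difference was 494.9 bp ± 32.4 (SD over 8 lists) from gene bodies and 499.8 bp ± 37.5 from outside genes, again in 8 of 8 lists (exact sign-flip permutation test, p = 0.00781 for each). The same pattern separated the members themselves, a split chosen after seeing the data. Members at a start had a mean of the list medians of 87.9 percentile points and 1189 bp, and members at an end of transcription 66.4 points and 652.5 bp. These differed by 21.6 points ± 1.63 and by 536.5 bp ± 24.6 in 8 of 8 lists (exact sign-flip permutation test, p = 0.00781 for each), so the latter had values close to those of gene bodies.

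**Figure D2:**
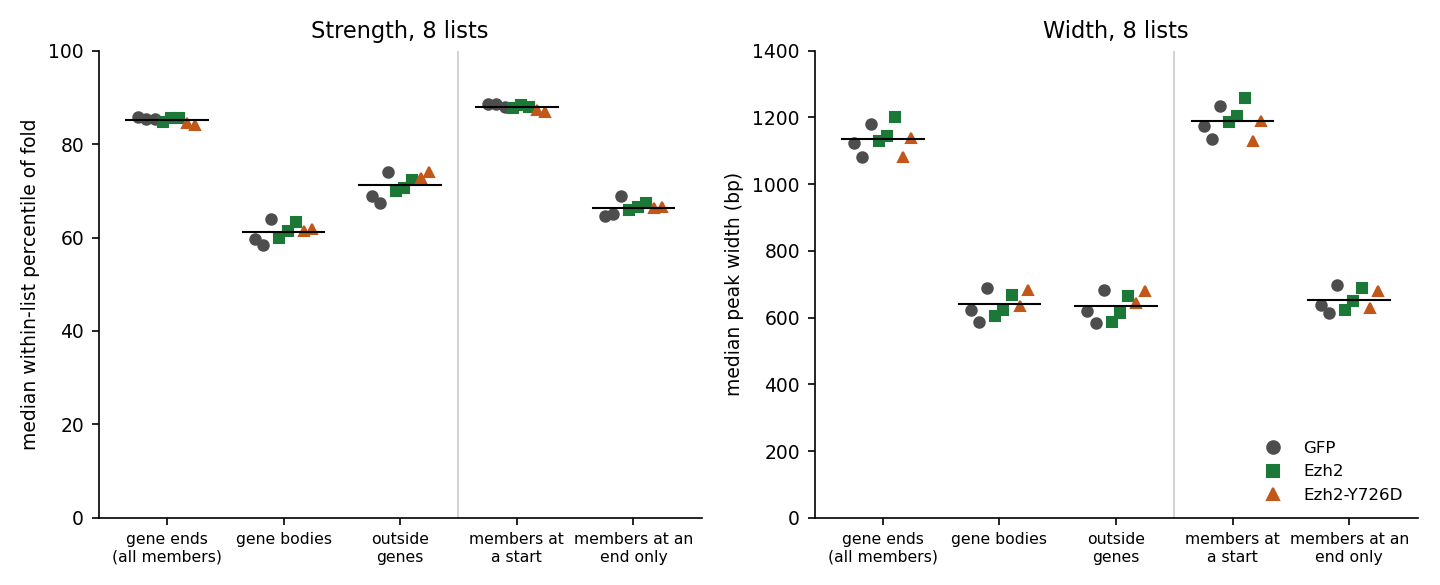
Median within-list percentile of the fold (left) and median peak width in bp (right) for each of the 8 lists, by class of region and group, with the mean over lists as a line. All 8 points of the gene-end members, at 84.1 to 85.9 percentile points and 1080 to 1200 bp, lie above those of gene bodies and of regions outside genes, and members at an end only fall to 652.5 bp on average.

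The samples were too few to show a difference between groups in the members' overall strength or width, since the exact test cannot go below 0.1 with 3 against 3 samples. Mean percentile was 85.5 ± 0.311 (SD, n = 3) with GFP, 85.3 ± 0.489 (n = 3) with Ezh2 and 84.4 ± 0.355 (n = 2) with Ezh2-Y726D. The differences were −0.195 for Ezh2 against GFP (exact permutation test, two-sided, p = 0.7), −1.18 for Ezh2-Y726D against GFP (exact permutation p = 0.2) and 0.988 for Ezh2 against Ezh2-Y726D (exact permutation p = 0.2), with adjusted p of 0.7, 0.3 and 0.3. Both Ezh2-Y726D lists lay below all other lists in strength. With 3 against 2 samples, however, the test as run here, which doubled the smaller tail, cannot go below 0.2, for width as for strength. Mean width was 1128 bp ± 49.2 with GFP, 1158 ± 37.2 with Ezh2 and 1108 ± 40.3 with Ezh2-Y726D. The width differences of 30.3 bp for Ezh2 against GFP, −19.2 bp for Ezh2-Y726D against GFP and 49.5 bp for Ezh2 against Ezh2-Y726D gave exact permutation p of 0.4, 0.8 and 0.4.

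The 10 members with the highest mean percentile, chosen on these lists and so near the ceiling in all of them, lay at Cdc25c, Psmc4, Gins4, Cpsf1, Zbed5, Espl1, Tpx2, Scfd1, Gpn1 and Cenpf. Cdc25c encodes the phosphatase that starts mitosis, and the fold of its region (chr18:34751099-34752232) was 20.9, 20.8 and 19.9 with GFP, 21.3, 20.4 and 19.6 with Ezh2, and 21.9 and 23.9 with Ezh2-Y726D. Psmc4 encodes an ATPase of the proteasome, and its region (chr7:28049599-28050667) had folds of 18.3, 18.3 and 19 with GFP, 20.6, 20.9 and 19.4 with Ezh2, and 19.7 and 19.2 with Ezh2-Y726D. For Cenpf (chr1:189687764-189688813) the folds were 16.9, 17.9 and 17.4 with GFP, 18.8, 18.1 and 17.6 with Ezh2, and 18.6 and 18.6 with Ezh2-Y726D. No comparison between groups was called for any of these 3. The RGCs studied are neurons that have left the cell cycle, and an open promoter does not show that its gene is transcribed.

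Merged width, the span over all 8 lists rather than the width in a single list, and strength did not run together at the extremes. Members of over 1200 and up to 1600 bp, 36% of the total, had the highest median percentile, 92, whereas the 1189 members over 2000 bp had a median of 67.1 and the 1430 members up to 800 bp a median of 53.1. The widest were at Socs2, a suppressor of cytokine signaling (3804 bp), Jun, an injury-induced transcription factor (3771 bp), Jade2 (3716 bp), Ing1 (3669 bp) and Smarca2 (3577 bp), the last 3 encoding proteins of chromatin complexes. The Jun region (chr4:95049936-95053706) had percentiles of 30.2, 30.9 and 22.0 with GFP, 18.7, 23.1 and 14.8 with Ezh2, and 20.9 and 18 with Ezh2-Y726D. It was thus broad as a merged region and low in every list. The narrowest were at Vav2 (274 bp), Fem1a (294 bp), Sgcb (302 bp), Arid5b (303 bp) and Vps37c (305 bp), none of which contained the gene end. Arid5b was below percentile 0.5 in all 8 lists.

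The sequence under the members was rich in CpG. Of 20085 RefSeq promoters, 10930 overlapped a member, and their median ratio of observed to expected CpG was 0.785 with a median GC content of 62.3%, compared with 0.176 and 46.7% for the 6328 promoters that overlapped no peak of any list. A ratio above 0.6 was found in 77.3% of the former and 4.87% of the latter. Read the other way, a member overlapped 8.73% of promoters with a ratio below 0.3, 48.3% of those from 0.3 to 0.6, 83.9% from 0.6 to 0.9 and 89.7% above. The 1198 promoters that overlapped a region with a peak in 1 to 7 lists had a median ratio of 0.28.

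Motif content differed along the range of strength. CCGGAAG was present in 11.9% of all promoters, in 5.7% of promoters at members with a mean percentile up to 50, in 27.9% of those above 90 and in 40.3% of the 720 above 99. CCAAT was present in 38.1% of all promoters, 37.9% of those at members and 40.9% of those without any peak, so members as a whole did not hold it more often. Among members it did not rise steadily, with 34.4% up to percentile 50, 29.2% from 50 to 75 and 57.5% above 99. GGGCGG was present in 47% of all promoters, 10.8% of those without any peak and 68.5% of those at members, whereas TATAAA was present in 12.7%, 25.5% and 6.08%. ATGGCGGC was present in 3.08% of all promoters, 5.08% of those at members and 0.269% of those without a peak, GCGCATGCG in 2.37%, 3.89% and 0.3%, TGACGTCA in 2.3%, 3.49% and 0.632%, and TGANTCA in 7.06%, 4.15% and 11.3%. Base composition differs between these sets and short motifs of G and C follow it, so the shares are descriptions of sequence and not of binding.

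The spread of members was smaller than that of other regions with a peak in all lists, both between replicates and between groups. The median SD of a member's percentile within groups was 2.44 points, compared with 7.85 in gene bodies and 7.63 outside genes, and the median range of the 3 group means was 4.3 points, compared with 14 and 14.2. A percentile cannot pass 100, which compresses the spread of strong regions, so classes were also compared within bins of strength. In regions of mean percentile up to 50, the SD within groups was 7.08 for members, 9.93 in gene bodies and 11.2 outside genes, and in regions above 90 it was 0.881, 1.89 and 2.09. On the log2 scale of quantile-normalized fold, which has no such ceiling, the SD was 0.088 for members, 0.155 in gene bodies and 0.163 outside genes. Members at an end of transcription were closer to gene bodies, with a within-group SD of 6.67 points and a range between groups of 11.7, whereas members at a start had 1.98 and 3.5. These medians over regions were not tested.

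**Figure D3:**
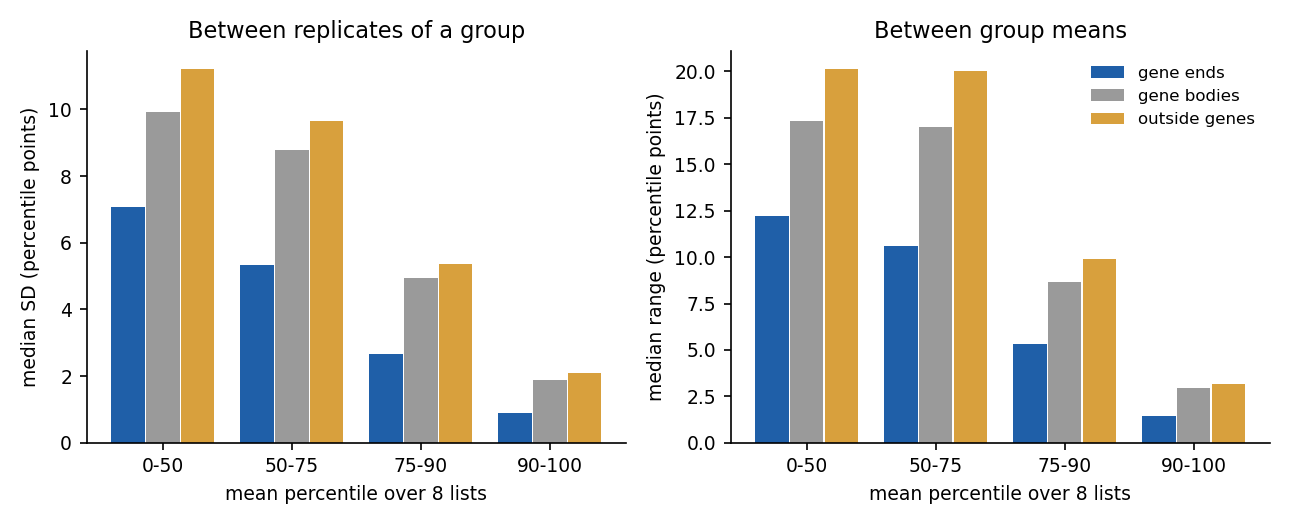
Median SD of the percentile between replicates of a group (left) and median range between the 3 group means (right), in percentile points, by class and by mean percentile over the 8 lists. Bars of gene-end members are the lowest in each bin, with SDs from 7.08 in the weakest to 0.881 in the strongest.

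A group range over 20 points was found in 8.31% of members, 32.7% of regions in gene bodies and 35.2% of those outside genes. Promoters at such members had a median ratio of observed to expected CpG of 0.538, compared with 0.821 at members whose range was at most 2. The 5 largest ranges were at Dhrs9, Ildr1, Grap2, Themis and Rdh1, at 89.4, 77.2, 70.1, 68.5 and 65.2 points, and in all 5 the Ezh2-Y726D lists were the low ones. The smallest ranges were at Cdc25c, Cpsf1, Crnkl1, Gins4 and Zbed5, which lie at the ceiling of the percentile. The fold at Crnkl1 still varied from 15.1 to 18.2 over the 8 lists.

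Differences between groups were tested with limma on the normal score of each region's rank within its list, fitted over all 68278 regions and 8 samples with Benjamini-Hochberg adjustment. These ranks were taken among the 68278 regions with a peak in all lists, whereas the percentiles rank all peaks of a list. A difference of 1 in normal score is 1 SD of the scores of a list, and a region was called at an adjusted p below 0.05. A total of 12802 members (93%) were called in none of the 3 comparisons, compared with 81.4% of all regions tested. Members at an end of transcription were called more often than members at a start in each comparison and direction, for instance 4.3% against 1.14% lower with Ezh2-Y726D than with GFP. The lists of Ezh2 and GFP did not overlap in 22.1% of members and 24.3% of all regions, those of Ezh2-Y726D and GFP in 39% and 41.6%, and those of the 2 forms of Ezh2 in 46.7% and 47.5%. The comparisons share samples, so their counts are given side by side.

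**Figure D4:**
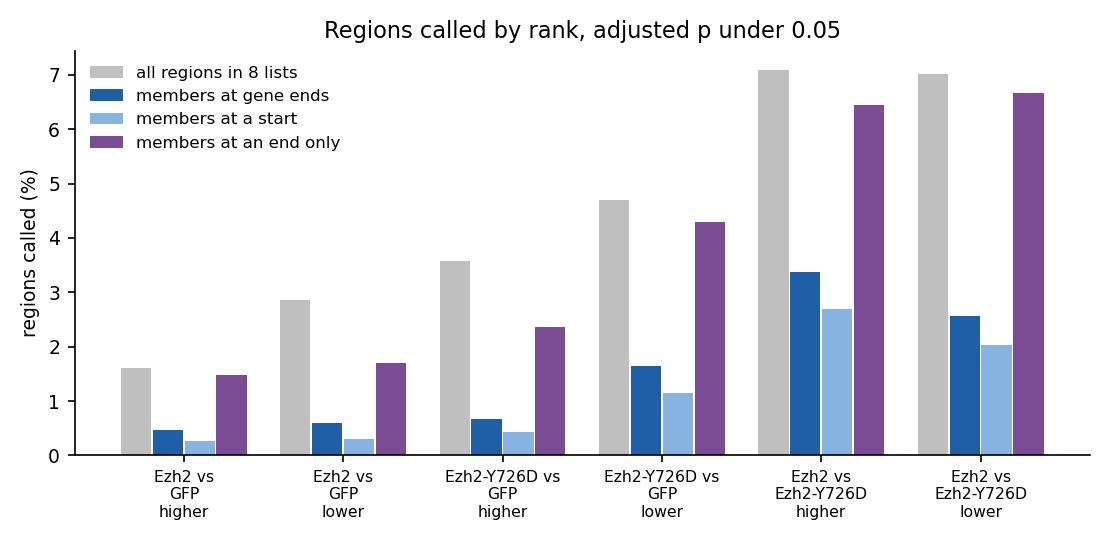
Percentage of regions called by rank at an adjusted p below 0.05, by comparison and direction (higher or lower in the first group named), for all 68278 regions, for the gene-end members, and for members at a start or at an end only. Members are called less often than all regions in all 6 cases, for example 1.64% against 4.7% lower with Ezh2-Y726D than with GFP.

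Ezh2 against GFP compared the lists of the active enzyme with those of the control. With Ezh2, 65 members (0.472%) were higher and 81 (0.588%) lower, against 1.61% and 2.86% of all regions tested. The median difference of all members was −0.033. Zyg11a encodes a substrate receptor of a ubiquitin ligase, and its region (chr4:108217378-108218147) had percentiles of 13.9, 15.0 and 23.5 with GFP, 67.2, 70.6 and 64.5 with Ezh2, and 43.1 and 26.6 with Ezh2-Y726D, a rank difference of 1.48 (SE 0.18, adjusted p = 0.00611, limma). The Ezh2 lists lay above all other lists. Slc9b2, a sodium and proton exchanger (chr3:135307268-135308449), had 53.7, 46.9 and 69.6 with GFP, 85.3, 88.0 and 97.6 with Ezh2, and 57.5 and 58.8 with Ezh2-Y726D (1.44, SE 0.27, adjusted p = 0.0197, limma). Dusp16, a phosphatase of MAP kinases, had a region near its transcription end (chr6:134716069-134716573) at 52.1, 11.1 and 31.9 with GFP, 76.3, 82.9 and 71.4 with Ezh2, and 12.9 and 23.6 with Ezh2-Y726D (1.43, SE 0.28, adjusted p = 0.0254, limma). In these 3 regions the Ezh2 and GFP lists did not overlap. The next were at Guca1a, which activates the guanylate cyclase of photoreceptors, the hormone receptor gene Glp1r, 4930568D16Rik, the mitochondrial enzyme gene Sqor, Erg, Ugt1a2 and Iftap, with rank differences from 1.21 to 1.28.

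The largest fall with Ezh2 was at Krtap16-3, a keratin-associated protein gene of hair (chr16:88962573-88963646). It had 81.0, 74.9 and 92.6 with GFP, 27.4, 18.9 and 46.4 with Ezh2, and 76.4 and 82.1 with Ezh2-Y726D, a rank difference of −1.79 (SE 0.25, adjusted p = 0.00842, limma). A region 807 bp from the transcription end of Hspa14, a member of the Hsp70 family (chr2:3489661-3490692), had 86.5, 79.3 and 87.9 with GFP, 33.6, 42.6 and 23.9 with Ezh2, and 37.1 and 15.1 with Ezh2-Y726D (−1.75, SE 0.23, adjusted p = 0.00722, limma). Thus the GFP lists were high and both other groups low. The region at the start of Hspa14 (chr2:3512118-3513588) was between 96.0 and 98.7 in all 8 lists and was not called. Impg2 encodes a proteoglycan of the matrix around photoreceptors, and its region (chr16:56203911-56204803) had 87.9, 95.1 and 95.9 with GFP, 49.3, 68.1 and 58.1 with Ezh2, and 53.1 and 37.9 with Ezh2-Y726D (−1.58, SE 0.23, adjusted p = 0.00923, limma). Further falls were at 1700024G13Rik, Mfap3l, Bmp10, Itpripl2, Rfxank, Fam167b and Klhl2, from −1.58 to −1.4.

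These counts depended on each library. Without GFP replicates 1, 2 or 3 they were 30, 16 and 22 higher and 44, 21 and 24 lower, without Ezh2 replicates 1, 2 or 3 they were 20, 32 and 15 higher and 38, 56 and 29 lower, and without either Ezh2-Y726D replicate 43 higher and 58 lower. By width, on a log2 scale centered on each list's median, 8 members (0.0581%) were wider and 6 (0.0436%) narrower with Ezh2, against 0.223% and 0.384% of all regions. Without that centering 1 was wider among 4 called. Without GFP replicate 2, Ezh2 replicate 1 or Ezh2 replicate 3, 0 were called by width (limma), with 698, 645 and 717 members at an unadjusted p below 0.05, and without the other samples 2 to 10 were called. The largest gain of width was at Agbl1, which had peaks of 370, 316 and 474 bp with GFP and 761, 1221 and 1115 bp with Ezh2, and the largest loss at Paqr6, with 1070, 949 and 1111 bp with GFP and 305, 486 and 327 bp with Ezh2. The groups did not overlap in either region, and their adjusted p for width was 0.0325 and 0.029 (limma).

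Ezh2-Y726D against GFP compared the lists of the inactive enzyme with those of the control. With Ezh2-Y726D, 93 members (0.676%) were higher and 226 (1.64%) lower, against 3.58% and 4.7% of all regions tested. Ranked by −log10 p in place of the fold, the counts were 70 and 456. The median difference of all members was −0.097. At Dhrs9 (chr2:69380209-69380997) the percentiles were 95.1, 90 and 96.4 with GFP, 94.7, 98.5 and 97.2 with Ezh2, and 4.66 and 10.1 with Ezh2-Y726D, a rank difference of −3.25 (SE 0.23, adjusted p = 0.00122, limma). The fold there was 10.6, 9.63 and 11.2 with GFP and 2.95 and 3.15 with Ezh2-Y726D, so the peak remained called but weak. The region of 1700024G13Rik (chr14:32387875-32388723) had 99.9, 99.9 and 99.8 with GFP, 95.1, 96.3 and 93.5 with Ezh2, and 80.8 and 86.4 with Ezh2-Y726D (−2.37, SE 0.19, adjusted p = 0.00122, limma). Grap2, an adaptor of the T cell receptor (chr15:80571935-80572961), had 79.9, 66.1 and 91.3 with GFP, 89.6, 76.7 and 82.9 with Ezh2, and 15.7 and 10.1 with Ezh2-Y726D (−2.16, SE 0.3, adjusted p = 0.00435, limma). Neither Ezh2-Y726D list overlapped the other lists in these 3 regions. Slc37a3, Gm36210, Ildr1, Impg2, the interferon-induced Gbp10, Hspa14 (the region near its transcription end) and the helicase gene Helz2 followed, from −2.1 to −1.94.

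The largest rise with Ezh2-Y726D was near the transcription end of Mdh1, the cytosolic malate dehydrogenase gene (chr11:21557266-21557983). It had 26.6, 21.8 and 29.0 with GFP, 74.6, 54.2 and 67.3 with Ezh2, and 92.3 and 75.3 with Ezh2-Y726D (1.91, SE 0.29, adjusted p = 0.0059, limma), so GFP was the low group. Cd27, a receptor of lymphocytes (chr6:125236695-125237897), had 15.6, 1.96 and 38.1 with GFP, 18.8, 11 and 9.61 with Ezh2, and 72.1 and 70.8 with Ezh2-Y726D (1.74, SE 0.34, adjusted p = 0.0153, limma). Esyt2, a protein of contacts between the endoplasmic reticulum and the plasma membrane (chr12:116389846-116390584), had 20.1, 28.7 and 17.9 with GFP, 39.3, 37.3 and 74.5 with Ezh2, and 76.4 and 74.7 with Ezh2-Y726D (1.59, SE 0.32, adjusted p = 0.0172, limma). The others, at Gm30302, Kcnn4, Gimap3, Ugt1a2, Bcar3, Hbs1l and Dad1, had rank differences from 1.4 to 1.57.

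Both Ezh2-Y726D libraries carried these counts. Without Ezh2-Y726D replicate 1, 4 members were higher and 39 lower, and without replicate 2, 20 were higher and 87 lower, in fits where the lone sample was assumed to vary like the other groups. Without GFP replicate 1, 2 or 3, the counts were 72, 51 and 68 higher and 118, 119 and 183 lower. By width, 22 members (0.16%) were wider and 174 (1.26%) narrower with Ezh2-Y726D, against 0.917% and 2.73% of all regions. Without GFP replicate 1, 2 or 3, 88, 89 and 125 members were called by width, and without Ezh2-Y726D replicate 1, 70. The largest loss was at Arhgap45, whose peaks measured 1502, 1266 and 1213 bp with GFP, 1559, 1654 and 1561 bp with Ezh2, and 219 and 350 bp with Ezh2-Y726D (adjusted p for width 0.00332, limma). Mypn (−2.29 on the log2 scale) and Il1rl2 (−2.01) followed, and the largest gain was at Bcar3 (1.52).

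Many markers of microglia and T cells, but not all, were without a peak in the Ezh2-Y726D group. Of 20 microglia marker genes, 14, 13 and 17 had a peak within 1 kb of an end with GFP, 17, 15 and 16 with Ezh2, and 4 and 5 with Ezh2-Y726D. The fold summed over these genes was 71.3 to 88.8 with GFP, 85.5 to 96 with Ezh2 and 43.4 to 43.7 with Ezh2-Y726D. Cx3cr1, C1qb, Tyrobp, Ctss, Cd68, Fcer1g and Ly86 had no peak in either Ezh2-Y726D list and a peak in all others, and Aif1 and Fcrls had none in any list. C1qc (10.4 and 8.54), P2ry12 (6.03 and 5.7) and Spi1 (13.1 and 12.7) went the other way, with folds in both Ezh2-Y726D lists above those in all other lists. Of 19 T cell marker genes, 17, 17 and 19 had a peak with GFP, 19, 19 and 19 with Ezh2, and 9 and 8 with Ezh2-Y726D, and the summed fold was 91.2 to 105.9, 99 to 115.4 and 42.9 to 47.9. Cd3g, Cd2, Cd8a, Cd8b1, Lat, Zap70, Il7r and Ccr7 were without a peak in both Ezh2-Y726D lists and had a peak in all others. Other T cell markers kept their level, and the Ezh2-Y726D folds at Cd247 (6.73 and 6.37) and Tcf7 (7.83 and 8.59) lay within the range of the GFP lists. Thy1, the gene of the sorted antigen, is on this list and on that of RGCs, since mouse T cells use it too. The part of these cells in the differences of the Ezh2-Y726D group was not tested, and a smaller share of such cells cannot be told apart from weaker peaks in each cell.

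Of 20 RGC marker genes, 18 or 19 had a peak in each list, with a summed fold of 106.5 to 117.8 with GFP, 110.5 to 115.2 with Ezh2 and 113.8 to 114.9 with Ezh2-Y726D. Isl2 had no peak in any list and Sncg had one in 2 lists. Single markers could still differ, and Pou4f1 is described below. Markers of rods (summed fold 82 to 106.7 over all lists, with 16 to 18 of 20 genes), Müller glia (95 to 108.7, with 18 of 20), amacrine cells (89.5 to 93.1, with 16 to 18 of 19) and bipolar cells (with 16 to 19 of 19 genes) also had peaks in all groups. Endothelial markers had peaks at 6 to 8 of 15 genes (32.1 to 42.9), and Cdh5, Tie1, Emcn, Vwf, Egfl7 and Ets1 had none in any list.

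Ezh2 against Ezh2-Y726D compared the enzyme with its inactive form. Of members, 464 (3.37%) were higher and 352 (2.56%) lower with Ezh2, against 7.09% and 7.01% of all regions tested. Ranked by −log10 p, the counts were 660 and 178. The median difference of all members was 0.075. Dhrs9 again led, with a rank difference of 3.59 (SE 0.23, adjusted p = 0.000215, limma). Ildr1 (chr16:36693633-36694443) had 95.7, 95.6 and 94.9 with Ezh2, 15.7 and 20.7 with Ezh2-Y726D, and 70.2, 85.8 and 90.3 with GFP (2.89, SE 0.24, adjusted p = 0.000516, limma). Rdh1 (chr10:127759444-127760027) had 89.9, 94.3 and 94.7 with Ezh2, 23.0 and 32.5 with Ezh2-Y726D, and 82.6, 63.6 and 83.9 with GFP (2.39, SE 0.24, adjusted p = 0.000718, limma). In all 3 the Ezh2-Y726D lists lay below every other list. Themis (2.26), Grap2 (2.26), Gbp10 (2.18), Slc37a3 (2.16), Carmil2 (2.1), Cabcoco1 (1.98) and Helz2 (1.96) followed.

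The members lowest with Ezh2 relative to Ezh2-Y726D were led by Gna15, a G protein subunit of blood cells, at a region near its transcription end (chr10:81502642-81503395). It had 59.0, 58.0 and 60.7 with Ezh2, 99.2 and 97.3 with Ezh2-Y726D, and 83.5, 86.7 and 83.0 with GFP (−2.26, SE 0.2, adjusted p = 0.000563, limma), so the 3 groups were apart from each other. Fam167b (chr4:129576925-129577710) had 36.9, 28.9 and 13.6 with Ezh2, 95.8 and 79.9 with Ezh2-Y726D, and 76.9, 77.8 and 61.2 with GFP (−2.21, SE 0.36, adjusted p = 0.0045, limma). Cstdc6, of the cystatin family (chr16:36321381-36322125), had 15.2, 37.3 and 17.5 with Ezh2, 92.0 and 83.6 with Ezh2-Y726D, and 72.8, 51.8 and 64.6 with GFP (−2.2, SE 0.27, adjusted p = 0.00154, limma). In the latter pair the Ezh2 lists were the low ones. Slc6a16, Gimap3, Dad1, Sigirr, Podnl1, Sec22c and Tedc1 followed, from −2.0 to −1.83.

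**Figure D5:**
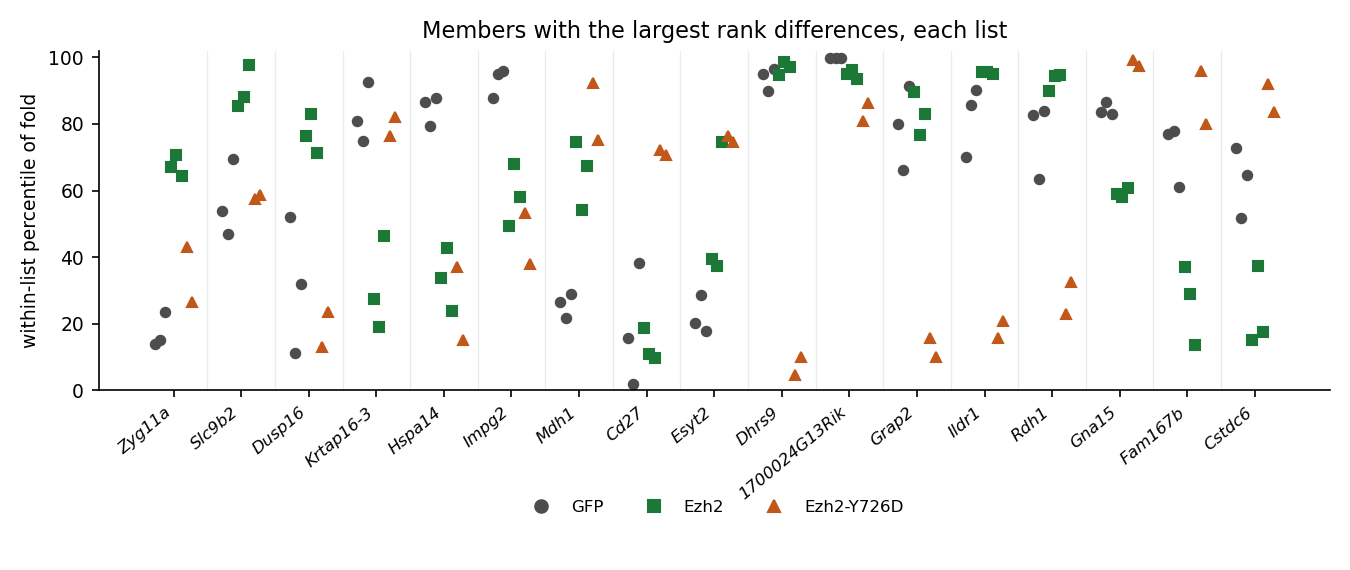
Within-list percentile of the fold in each of the 8 lists for the members with the 3 largest rank differences in each comparison and direction, by group. Dhrs9, Grap2, Ildr1 and Rdh1 have both Ezh2-Y726D lists below all others, whereas Hspa14, Impg2 and Mdh1 have GFP apart from both other groups.

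Without Ezh2-Y726D replicate 1 the counts for Ezh2 against Ezh2-Y726D were 131 higher and 86 lower, and without replicate 2, 178 and 128. Without Ezh2 replicate 1, 2 or 3 they were 262, 267 and 306 higher and 204, 243 and 235 lower. By width, 392 members (2.85%) were wider and 46 (0.334%) narrower with Ezh2, against 4.18% and 1.84% of all regions. Without centering, 224 of 266 called were wider, and without Ezh2-Y726D replicates 1 or 2, 138 and 211 were called, and without Ezh2 replicates 1, 2 or 3, 194, 243 and 255. Arhgap45 (2.58 on the log2 scale) and Traf3ip3 (2.57) differed most. The latter encodes a protein of lymphocytes, and its peaks measured 1432, 1453 and 1311 bp with Ezh2, 288 and 209 bp with Ezh2-Y726D, and 854, 777 and 821 bp with GFP (adjusted p for width 0.00104, limma). Tnfsf11, the cytokine RANKL, followed (2.43), and Mmp14 (−1.68), Nrg1 (−1.43) and Bcar3 (−1.42) were the most narrow relative to Ezh2-Y726D.

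Genes of basic functions had members in the upper part of the range. The counts for gene lists take the strongest member of each gene, so a gene's further members are not in them. Of 74 cytosolic ribosomal protein genes, 72 had a member, with a median percentile of 95.4 and a median within-group SD of 1.05. Of 31 proteasome genes, 30 had a member (median 98.1, SD 0.484), as did 33 of 33 genes of mitochondrial complex I (96, SD 0.913) and 32 of 32 RNA splicing genes (95.7, SD 1.13). Over all members the median was 84.5 and the SD 2.44, and over all members above percentile 90, where the ceiling limits the spread, the SD was 0.881. For Ezh2 against GFP, 0 members of these 4 lists were called (limma), where 1.06% of all members were, so few calls could occur. Psmb7, a catalytic proteasome subunit, was the only one called for Ezh2-Y726D against GFP, with 95.6, 92.9 and 94.3 with GFP and 85.3 and 78.3 with Ezh2-Y726D (−0.83, adjusted p = 0.025, limma). For Ezh2 against Ezh2-Y726D, Psmb7 (0.71), Ndufs4 (0.65) and Sf3b2 (0.56) were higher, and Sf3b1 (−0.66) and a region near the transcription end of Rps19 (−0.91) lower. The lists were chosen with earlier results of these data in view.

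Heat shock genes, whose products fold and protect proteins, had members at 22 of 23 genes (median percentile 85.2). Counting the strongest member of each gene, 2 of 20 regions were lower and none higher for Ezh2 against GFP, and for Ezh2 against Ezh2-Y726D, 5 were lower and none higher, while 1 was higher with Ezh2-Y726D than with GFP. Over all members the shares lower were 0.588% and 2.56%. The region near the transcription end of Hspa14 described above, a further member of its gene and lower with both other groups than with GFP, is not in these counts. The start of Hspa1b, an inducible Hsp70 gene (chr17:34958982-34960347), had 83.3, 78.3 and 77.4 with GFP, 56.2, 63.8 and 56.6 with Ezh2, and 92.7 and 92.6 with Ezh2-Y726D. The 3 groups did not overlap, and it was called in all 3 comparisons (rank difference −0.77, adjusted p = 0.0331, with Ezh2 relative to GFP and −1.47, adjusted p = 0.00166, relative to Ezh2-Y726D, limma). Hspa1a (chr17:34971894-34972807) had 90, 89.2 and 89.8 with GFP, 71.8, 76.1 and 67.9 with Ezh2, and 93.5 and 90.1 with Ezh2-Y726D (−0.84, adjusted p = 0.0258, and −0.97, adjusted p = 0.00895, limma). Hspa1a and Hspa1b are near-identical copies, so reads may have been shared between them and they are not separate evidence.

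Among heat shock genes of distinct sequence, Dnajb1, a co-chaperone of Hsp70, had 89.5, 89.6 and 86.8 with GFP, 77.7, 77.5 and 70.9 with Ezh2, and 94 and 93.3 with Ezh2-Y726D (−0.99 for Ezh2 against Ezh2-Y726D, adjusted p = 0.00865, limma). Hsph1 had 92.5, 93.3 and 88.2 with GFP, 81.3, 79.8 and 75.3 with Ezh2, and 93.6 and 92.9 with Ezh2-Y726D (−0.81, adjusted p = 0.0266, limma), and Dnaja1 followed (−0.76, adjusted p = 0.034, limma). In Dnajb1 and Hsph1 the Ezh2 lists lay below all lists of the other groups. Against GFP, Dnajb1 (−0.65, adjusted p = 0.0604, limma) and Hsph1 (−0.7, adjusted p = 0.0596, limma) did not pass. The start of Hspa5, the chaperone of the endoplasmic reticulum, had percentiles between 93.3 and 98.6 in the 8 lists and was not called.

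Polycomb genes had members at 29 of 29 genes (median percentile 86, median merged width 1542 bp). The endogenous Ezh2 start (chr6:47594045-47595712) had 92.8, 93.2 and 89.8 with GFP, 90.8, 91.2 and 92.1 with Ezh2, and 92.1 and 94 with Ezh2-Y726D, and the groups overlapped. Rank differences there were −0.07 with Ezh2 and 0.06 with Ezh2-Y726D relative to GFP, neither called. This region lies at the gene's own start, so it does not check the transgene. Suz12 and Ezh1, the core subunit and the relative of Ezh2, had percentiles between 95.6 and 97.6 and between 94.1 and 98.6. Of the strongest members of these genes, 1 was called, a region at the transcription end of Aebp2, with 80.6, 71.0 and 83.3 with GFP and 90.8, 92.9 and 93.8 with Ezh2 (0.74, adjusted p = 0.036, limma).

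Genes of injury and growth had broader and weaker members. All 25 injury transcription factor genes had a member, with a median percentile of 60.7 and a median merged width of 1782 bp against 1312 bp over all members. Junb was low in all lists, with 6.82, 6.19 and 4.75 with GFP, 1.75, 2.07 and 1.91 with Ezh2, and 12.4 and 11.5 with Ezh2-Y726D, and differed between Ezh2 and Ezh2-Y726D (−0.83, adjusted p = 0.013, limma). The region at Mafg, named here after the nearer gene Sirt7, also did (−0.77, adjusted p = 0.0368, limma). Of 20 regeneration-associated growth genes, 16 had a member (median percentile 63.6). Of their 15 regions 0 were called in each comparison (limma), where 1.06%, 2.32% and 5.93% of all members were, so that few calls could occur. Of 22 genes of axon growth inhibitors and their receptors, 20 had a member. Of their 20 regions 2 passed, where 1.64% of all members did, since Lingo2 (−0.93, adjusted p = 0.0324, limma) and the ephrin receptor gene Epha8 (−0.92, adjusted p = 0.0205, limma) were lower with Ezh2-Y726D than with GFP. Both were also higher with Ezh2 than with Ezh2-Y726D (0.76 and 0.92).

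Genes of neuronal signaling had members of intermediate strength. Voltage-gated ion channel genes had a member in 34 of 36 cases and transmitter receptor genes in 32 of 32, with median percentiles of 64.6 and 66.6. Cacna1e, a calcium channel gene (chr1:154884253-154885004), had 65.4, 45.4 and 70.6 with GFP, 16.8, 15.7 and 47.7 with Ezh2, and 55.9 and 66.2 with Ezh2-Y726D, and was lower with Ezh2 than with GFP (−1.06, adjusted p = 0.0476, limma), although Ezh2 replicate 3 exceeded the lowest GFP list. Cacna1c was higher with Ezh2-Y726D than with GFP (0.95, adjusted p = 0.02, limma) and the receptor gene Gabbr1 lower (−0.75, adjusted p = 0.0351, limma). For Ezh2 against Ezh2-Y726D, Scn1a (0.75), Kcnh7 (0.7), Kcnh2 (0.65), Gria4 (0.71) and the region at Grin2d and Grwd1 (0.74) were higher and Cacna1e lower (−1.02). Thus 3 of 34 channel regions and 2 of 30 receptor regions were higher, where 3.37% of all members and 7.09% of all regions were. In the comparisons with GFP, at most 1 region per list and direction was called, where 1.06% and 2.32% of all members were called. Whether these lists differ from other members was not tested.

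Of RGC markers, 18 of 20 genes had a member (median percentile 64.3). Pou4f1 encodes Brn3a, a transcription factor of RGCs, and its start (chr14:104467323-104468514) had 63.1, 73.0 and 71.1 with GFP, 81.8, 78.4 and 82.8 with Ezh2, and 34.2 and 49.4 with Ezh2-Y726D. Both Ezh2-Y726D lists were below and all Ezh2 lists above the GFP lists, and the region was lower with Ezh2-Y726D than with GFP (−0.85, adjusted p = 0.0267, limma) and higher with Ezh2 than with Ezh2-Y726D (1.3, adjusted p = 0.00301, limma). The strongest members of the other RGC markers were not called, where 2.32% and 5.93% of all members were. Among Müller glia markers, Slc1a3 (1.09), Kcnj10 (0.81) and Glul (0.81) were higher with Ezh2 than with Ezh2-Y726D, as were Cngb1 of rods (0.89), Pax6 of amacrine cells (0.83) and Bhlhe23 of bipolar cells (0.9). The lists held 18, 16, 15 and 16 regions in this order, and 3.37% of all members were higher. Although 0 regions of these lists were called lower, not all their markers moved together. By the highest fold within 1 kb of an end, Vim of Müller glia, Chat of amacrine cells, and Scgn and Grm6 of bipolar cells were lower in all Ezh2 lists than in both Ezh2-Y726D lists. Scgn, for example, had 5.43, 4.42 and 5.1 with Ezh2 and 6.74 and 6.65 with Ezh2-Y726D. Against GFP, 2 of 16 rod regions were higher with Ezh2, where 0.472% of all members were. Cnga1 of rods went the other way, with a peak within 1 kb of an end in all GFP lists and in no Ezh2 list.

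Genes of other tissues were mostly without members. Developmental transcription factor genes had a member in 21 of 50 cases (median percentile 50.8), and En1, with 30.0, 6.4 and 20.5 with GFP, 66.1, 53.7 and 52.7 with Ezh2, and 33.1 and 23.9 with Ezh2-Y726D, was higher with Ezh2 than with GFP (1.15, adjusted p = 0.0293, limma). Gsc was higher with Ezh2 than with Ezh2-Y726D (1.09, adjusted p = 0.0169, limma). Of 1100 olfactory receptor genes (Olfr), 14 (1.27%) had a member, compared with 66.1% of all protein-coding genes. Members were found at 3 of 20 microglia marker genes, at 9 of 19 T cell marker genes and at 7 of 15 endothelial marker genes. The region at Cd2 had peaks in all lists, but those of Ezh2-Y726D lay more than 1 kb from the gene. C1qc, a complement gene, was lower with Ezh2 than with Ezh2-Y726D (−1.03, adjusted p = 0.0343, limma), with 92.4 and 85.5 in the Ezh2-Y726D lists.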

How the data were processed

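ATAC-Seq libraries from FACS-enriched RGCs had been processed by the authors, whose notes name cutadapt, Bowtie2, SAMtools, Picard, MACS2 and deepTools and the build GRCm38. Peaks were called per sample and deposited as 1 narrowPeak list each (111036 to 133536 peaks on chromosomes 1 to 19). The deposited fold is the ratio of the summit pileup to local background, the −log10 of the p-value and that of the q-value were deposited as the peak caller gave them, and so were a score, not used here, and a summit offset. The lists hold no reads, so depth is unknown and no interval for counting error was given. Arms and replicates were taken from the sample titles.

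Here, peaks were merged and assigned to RefSeq gene ends (GRCm38.p6). For the percentiles, folds were ranked within lists among all peaks. For the fits, they were ranked within lists among the 68278 regions with a peak in all 8 lists. The fits used limma 3.58.1 (R 4.3.3) on normal scores of the latter ranks, or on log2 covered width, of 68278 regions. Other tests were exact permutation tests (scipy 1.17.1). The fit was tested on simulated data. Alternatives were lists cut to 111036 peaks, a −log10 q of at least 5, gene ends within 3 kb, peaks covering at least 0.5 of a region, ranks of −log10 p, log2 folds, uncentered widths, a replicate block, and omission of each of the 8 samples. Named were, per comparison, the 10 largest rank differences each way among called members without overlap and the 3 largest width differences each way, the 10 strongest, 5 widest, 5 narrowest, 5 most and 5 least variable members, Ezh2, and from each gene list the strongest and all called members. Of these, the regions with per-sample values and examples are given. Members and lists were chosen with earlier results of these data known. Some results on single genes are not reported here.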

Additional observations from a re-analysis of the deposited data

How the results depend on the processing

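The differences of members from gene bodies and from regions outside genes kept their sign in all settings run, with an exact permutation p of 0.00781, or of 0.0156 without 1 sample. The number of members was 13461 with lists of equal length, 13053 at a −log10 q of at least 5, 12215 with peaks covering at least 0.5 of a region, 17498 with gene ends within 3 kb, and 13767 to 13921 without 1 sample. Changes of sign occurred only in differences that passed no test. The median percentile of Ezh2 minus GFP became 0.0575 with gene ends within 3 kb and 0.486 ranked by −log10 p, and was −0.348 to 0.0871 without 1 sample (0.0871 without Ezh2 replicate 1). The median width of Ezh2-Y726D minus GFP was −47.7 to 9.33 bp without 1 sample (6.5 without GFP replicate 3, 9.33 without Ezh2-Y726D replicate 1).

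For Ezh2 against GFP, called members were 121 higher and 164 lower by rank and 31 by width with gene ends within 3 kb, and 31, 38 and 0 under the covering rule, by which a list counts only with peaks over 0.5 or more of a region (820 at an unadjusted p below 0.05 by width, limma). Uncentered widths gave 4. Without 1 sample, they were 15 to 43, 21 to 58 and 0 to 10. For Ezh2-Y726D against GFP, they were 201, 387 and 305 with gene ends within 3 kb, 106 lower by rank and 13 by width with the covering rule, 456 lower ranked by −log10 p, and by width 111 at a −log10 q of at least 5 and 108 without centering. Without 1 sample, they were 4 to 95, 39 to 197 and 70 to 144. For Ezh2 against Ezh2-Y726D, they were 708 and 582 by rank with gene ends within 3 kb, 270 higher by rank and 144 by width with the covering rule, 178 lower ranked by −log10 p, and 266 by width without centering. Without 1 sample, they were 131 to 426, 86 to 326 and 138 to 361. The cause of these changes was not tested, apart from the larger or smaller number of regions that the distance and the covering rule admit. The median spread within groups was 2.91 points with lists of equal length, 2.65 at a −log10 q of at least 5, 3.01 with 3 kb, 2.1 with the covering rule and 1.02 ranked by −log10 p, and that between groups 4.88, 5.3, 3.69 and 1.66 for the last 4.

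The main fit did not pair samples by replicate number. Same-numbered samples of different groups correlated at −0.0152 to 0.049 in their deviations from the group means, and other pairs at −0.0493 to 0.0451. Deviations from the mean of 2 or 3 samples are tied to each other, so these values cannot show whether samples shared their processing. With a replicate block by the numbers of the titles, 40 and 55 members were called by rank and 0 by width for Ezh2 against GFP (808 at an unadjusted p below 0.05, limma), 82, 172 and 60 for Ezh2-Y726D against GFP, and 339, 247 and 162 for Ezh2 against Ezh2-Y726D. Names within the peak lists gave the Ezh2-Y726D replicates the numbers 2 and 3, and a replicate block by these, added after seeing the data, gave 38, 46 and 0 (815 unadjusted), 62, 121 and 26, and 264, 242 and 132. Ranked by −log10 p, 85 of 146, 223 of 319 and 453 of 816 called members were called again in the same direction in the 3 comparisons. With log2 folds, 134, 295 and 736 were. Without GFP replicate 2, 33 of the 146 for Ezh2 against GFP were. The named regions were picked for large differences and so do not stand for all called members. Of 20 named regions a comparison, 13, 16 and 15 remained called when ranked by −log10 p and 20, 20 and 20 with log2 folds, and none changed sign in the settings run. For Ezh2 against GFP, 10 remained called without GFP replicate 2 and 12 without GFP replicate 3 or Ezh2 replicate 1, and for Ezh2-Y726D against GFP, 11 and 13 without Ezh2-Y726D replicates 1 and 2. Under the covering rule 16, 16 and 14, and at a −log10 q of at least 5, 10, 13 and 10, no longer counted as present in all 8 lists. Within-bin and log2 values of the spread and the split into starts and ends were also added after seeing the data. Depth is not known from these lists, so weak peaks near the calling threshold limit what the widths and low ranks can show.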
